A study of Mus musculus with 20 samples.

Results

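The amino acid transporters of the proximal tubule examined here are 10 genes, Slc6a19, Slc6a18, Slc6a20b, Slc7a7, Slc7a9, Slc7a13, Slc3a1, Slc3a2, Slc1a1 and Slc36a1. They were taken by gene symbol from 2 tables of kidney RNA sequencing counts, and all 10 were found, once each, among the 26608 genes of the first table and the 30809 genes of the second. The study asked what a blood system that has lost the Y chromosome (LOY) does to the kidney, using aged mice with transplanted bone marrow. The first table holds 6 Control kidneys (animals 3, 11, 12, 13, 16 and 17) and 6 LOY kidneys (animals 5, 8, 9, 10, 14 and 18). The second holds kidneys of LOY animals only, 4 given a control compound (animals 6, 8, 9 and 10) and 4 given ABT263 (animals 15, 16, 17 and 18). ABT263, also written ABT-263 and known as navitoclax, inhibits survival proteins of the BCL-2 family and is used as a senolytic, a compound that kills senescent cells. Every animal of the second table carried LOY, so that table has no Control blood system. The labels call Control and LOY a genotype; the strain, the age, the dose, and how the transplanted cells lost the Y chromosome are not stated there. Whole kidney was sequenced, so fewer tubule cells and less RNA per tubule cell cannot be told apart in any value below.

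The proximal tubule takes back nearly all the amino acids that the glomerulus filters. Carriers of the brush border, the apical membrane that faces the urine, bring amino acids into the cell, mostly with sodium, and a different set of carriers in the basolateral membrane passes them on to the blood. Several of these carriers are pairs: a light chain of the Slc7 family that does the transport is held by a disulfide bond to a heavy chain, Slc3a1 (rBAT) at the apical side or Slc3a2 (the CD98 heavy chain) at the basolateral side. Loss of SLC3A1 or SLC7A9 causes cystinuria in humans, loss of SLC6A19 causes Hartnup disorder, and loss of SLC7A7 causes lysinuric protein intolerance. Each of these disorders spills amino acids into the urine.

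Promoters of 3 members are shown because these genes stood for the different patterns described below: Slc6a19 had the largest difference between Control and LOY kidneys, Slc3a1 is the apical heavy chain with the widest spread between LOY kidneys after Slc6a19, and Slc3a2 is the basolateral heavy chain, with a difference near 0. Each run covers 250 bases before to 50 after the annotated start (RefSeq, GRCm38.p6), written 5′ to 3′. For Slc6a19 and Slc3a2 this start lies inside the wider GENCODE gene span given below. The GENCODE 5′ ends of these genes (73704865 and 8723369) are not in the windows shown. Capitals in Slc3a1 mark the letters CAAAGTCCA, a site of the HNF4 type, at bases 212 to 220 of the window. This motif was not found in the Slc6a19 and Slc3a2 windows.
Slc6a19, chr13:73692587-73692886, minus strand: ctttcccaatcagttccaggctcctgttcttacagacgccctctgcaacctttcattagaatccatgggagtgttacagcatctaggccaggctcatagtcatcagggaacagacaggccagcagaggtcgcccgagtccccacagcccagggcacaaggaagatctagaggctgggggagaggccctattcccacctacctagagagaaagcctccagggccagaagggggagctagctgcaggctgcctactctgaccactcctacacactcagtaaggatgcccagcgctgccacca
Slc3a1, chr17:85028097-85028396, plus strand: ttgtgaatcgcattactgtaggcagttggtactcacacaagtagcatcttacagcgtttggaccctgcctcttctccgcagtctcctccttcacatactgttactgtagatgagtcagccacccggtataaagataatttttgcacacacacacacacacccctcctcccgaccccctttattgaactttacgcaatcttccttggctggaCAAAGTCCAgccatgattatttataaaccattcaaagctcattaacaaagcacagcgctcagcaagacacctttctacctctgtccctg
Slc3a2, chr19:8713848-8714147, minus strand: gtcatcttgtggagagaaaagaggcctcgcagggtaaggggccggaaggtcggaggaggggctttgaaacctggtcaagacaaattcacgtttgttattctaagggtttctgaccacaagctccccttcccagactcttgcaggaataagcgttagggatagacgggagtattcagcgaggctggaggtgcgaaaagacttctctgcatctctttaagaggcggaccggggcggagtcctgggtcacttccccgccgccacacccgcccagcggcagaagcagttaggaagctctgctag
HNF4A is a transcription factor of the proximal tubule. RefSeq gave a promoter for 8 of the 10 members. Searched on both strands, CAAAGTCCA occurred in 1 of these 8 windows and in 150 of 27025 promoters of the same length (0.555%). The motif and the 3 promoters were chosen after the values were seen, and a match is a run of letters, not evidence of binding.

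Some kidneys stood apart. For most members the LOY log2 fold change is also given without LOY animals 8 and 10. Several values of the second comparison are also given without control-compound animal 6 and ABT263 animal 16. Leaving out Control animal 3 is covered only in the closing section. Sums and correlations are given with every kidney only. Total counts were 13332563 to 19386408 per kidney in the first table and 14587809 to 20791633 in the second. Markers of injured tubule such as Havcr1 and Lcn2 summed to 1930 to 3822 CPM (counts scaled to library size, with TMM factors) in Control and 3764 to 9101 in LOY kidneys, and 7 of these 10 markers rose. Of 10 macrophage markers 5 rose, and of 7 tested T and natural killer cell markers 3 rose (edgeR quasi-likelihood test, adjusted p below 0.05). The 20 markers of proximal tubule other than amino acid transporters summed to 24120 to 30435 CPM in Control and 12658 to 26029 in LOY kidneys. None of these 20 passed, 18 of them had negative log2 fold changes, and their median was -0.44. Within Control, animal 3 had the highest injury sum and was the lowest for 7 of the 10 transporters; within LOY, animals 8 and 10 were the lowest for 5 and 4 of them. Animal number follows the groups: 5 Control but 2 LOY kidneys are numbered above 10. Whether tubule injury, leukocyte RNA or animal number has a part in the transporter values was not tested.

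All 10 transporters had a lower mean in LOY than in Control kidneys, and none passed the threshold of an adjusted p below 0.05 over the 14978 genes tested. Their median log2 fold change was -0.56, beside 0.02 for all tested genes, whose quartiles were -0.19 and 0.26. Of all genes 1.18% passed, 0.0601% as lower, and 47.7% had a negative log2 fold change. At an unadjusted p below 0.05, 7 of the 10 were lower (all but Slc6a18, Slc7a13 and Slc3a2), against 9.33% of all genes (edgeR quasi-likelihood test). Of the 20 other proximal tubule markers, 11 were lower at that p, so such lower values were not particular to the transporters. In none of the 10 did the Control and LOY kidneys separate completely, against 2.02% of all genes. The estimates ranged from 3.12-fold lower for Slc6a19 to log2 fold changes of -0.04 for Slc6a18 and Slc3a2.

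**Figure D1:**
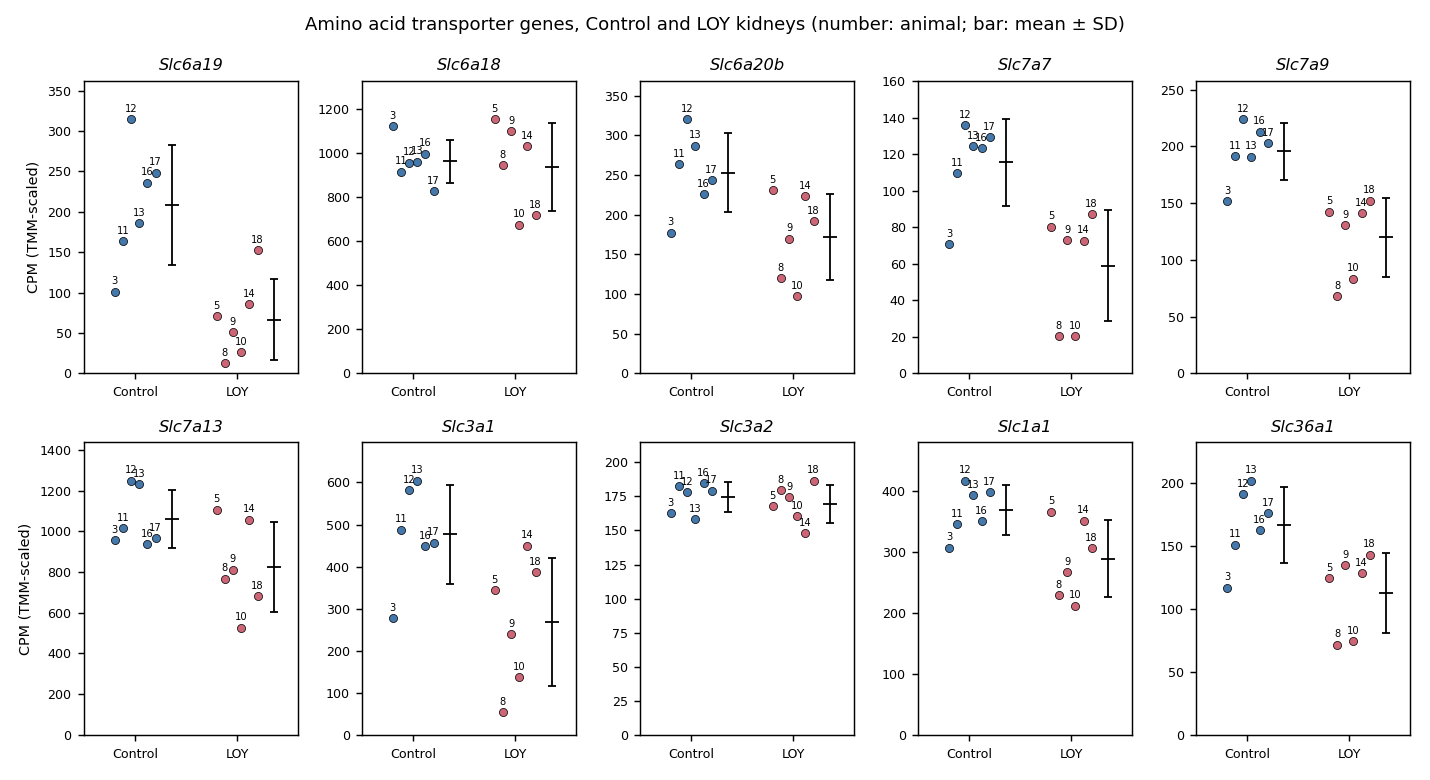
Each panel plots one gene in CPM (TMM-scaled; the axis starts at 0) for 6 Control and 6 LOY kidneys; points are kidneys with their animal number, and bars are mean ± SD. Slc6a19 lies at 101 to 315 CPM in Control and 13.0 to 152 in LOY, Slc6a18 and Slc3a2 have LOY kidneys both below and above the Control range, and LOY animals 8 and 10 are the lowest points in most panels.

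Of the apical carriers for neutral amino acids, Slc6a19 and Slc6a18 lie next to each other and gave different values. Slc6a19 encodes B0AT1, the main sodium-coupled carrier of neutral amino acids in the brush border (chromosome 13, 73679745 to 73704865, minus strand, GRCm38). Its level was 101 CPM at the lowest, 211 at the median and 315 at the highest in Control, and 13.0, 61.0 and 152 in LOY kidneys. Of the 6 LOY kidneys 5 lay below every Control kidney, and animal 18 lay among the Control values. Means were 208 ± 74.3 CPM (Control) and 66.6 ± 49.9 CPM (LOY; SD, n = 6 per group), a log2 fold change of -1.64 ± 0.45 (SE) with a 95% interval of -2.60 to -0.69. The edgeR p was 0.00236 and the adjusted p 0.0860. Without LOY animals 8 and 10 the log2 fold change was -1.23 (edgeR adjusted p = 0.158), and within the animals numbered above 10 it was -0.94 (edgeR adjusted p = 0.277). DESeq2 (-1.66, adjusted p = 0.0277) and voom with quality weights (-1.63, adjusted p = 0.0152) both called Slc6a19.

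Slc6a18 encodes B0AT3, a related brush-border carrier of glycine and other neutral amino acids, and starts 1721 bases beyond the end of Slc6a19 on the same strand (73661752 to 73678023). It was among the most abundant members, at 827, 960 and 1123 CPM (lowest, median, highest) in Control and 676, 988 and 1155 in LOY kidneys. LOY animals 10 (676) and 18 (720) lay below every Control kidney and animal 5 (1155) above, with the other 3 LOY kidneys inside the Control range. The highest Control kidney was animal 3 (1123), which was the lowest in that group for Slc6a19. Its log2 fold change was -0.04 ± 0.15 (edgeR adjusted p = 0.882), with an interval of -0.35 to 0.27 that excludes a change as large as that estimated for Slc6a19. Its sign depends on the kidneys, being 0.04 without LOY animals 8 and 10. The count ratio of Slc6a19 to Slc6a18 within a kidney, computed after the values had been seen and not tested, was 0.090 to 0.329 in Control and 0.014 to 0.212 in LOY kidneys.

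Slc6a20b is one of a pair of mouse paralogues of the human imino acid carrier SLC6A20, which takes up proline (chromosome 9, 123590800 to 123632565, minus strand). It measured 178, 253 and 320 CPM in Control and 97.1, 181 and 231 in LOY kidneys (lowest, median, highest). Animals 8 (120 CPM) and 10 (97.1 CPM) were the lowest, and 3 LOY kidneys lay below every Control kidney. LOY kidneys had a log2 fold change of -0.56 ± 0.21 (edgeR adjusted p = 0.159), and -0.33 without animals 8 and 10. The paralogue Slc6a20a, 2204 bases away, measured 30.3 ± 6.44 CPM in Control and 19.8 ± 7.43 in LOY kidneys, a log2 fold change of -0.61 ± 0.22 (edgeR adjusted p = 0.156). Reads shared between the paralogues, and with Sacm1l, which overlaps Slc6a20b, could be counted for either, since the strand setting of the counting is unknown. The same holds for Slc6a19 with its antisense transcript Slc6a19os, which had 9 to 26 counts in Control and 3 to 25 in LOY kidneys. It also holds for Slc7a7 with Oxa1l, for Slc3a1 with Prepl and for Slc1a1 with 4430402I18Rik and Gm5822. All of these overlap the members in the GENCODE annotation.

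Collectrin, encoded by Tmem27, is the partner that B0AT1 needs to reach the brush border of the kidney. It was 1366 ± 104 CPM in Control and 1130 ± 293 in LOY kidneys (log2 fold change -0.27 ± 0.16, edgeR adjusted p = 0.309). The log2 count ratio of Slc6a19 to Tmem27 within a kidney was -2.80 ± 0.52 in Control and -4.44 ± 1.13 in LOY kidneys, lower by 1.65 in LOY (exact two-sided permutation p = 0.00866, adjusted p = 0.0173 over 6 ratios). As plain count ratios these were 0.077 to 0.223 in Control and 0.014 to 0.154 in LOY kidneys, where animal 18 alone (0.154) lay above the lowest Control kidney. A ratio within a kidney does not depend on how libraries are scaled. The difference no longer passed without LOY animals 8 and 10 (-1.13, exact permutation adjusted p = 0.0857). The ratios were adjusted over 6 tests, whereas single genes were adjusted over all tested genes. Slc6a19 alone had an unadjusted edgeR p of 0.00236 and did not pass (adjusted p = 0.0860), with a log2 fold change of -1.64. That the ratio passed therefore does not show a change of balance beyond the lower Slc6a19 values.

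The apical heavy chain Slc3a1 carries the Slc7a9 and, in mice, the Slc7a13 light chain. Slc3a1 (chromosome 17, 85028376 to 85064236, plus strand) measured 278, 473 and 604 CPM in Control and 55.0, 292 and 450 in LOY kidneys (lowest, median, highest). LOY animal 8, at 55.0 CPM, and animal 10, at 138, were far below the other 4 LOY kidneys (239 to 450), 3 of which lay within the Control range of 278 to 604. For Slc3a1 the log2 fold change was -0.83 ± 0.38 (edgeR adjusted p = 0.210), and it was -0.44 without animals 8 and 10. Of the 10 members only Slc6a19 had a larger coefficient of variation among LOY kidneys (74.9%) than Slc3a1 (56.7%).

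Slc7a9, the light chain that exchanges cystine and cationic amino acids for neutral ones (chromosome 7, 35448796 to 35466036, plus strand), had the smallest p of the 10 members. It measured 152, 197 and 224 CPM in Control and 68.4, 136 and 152 in LOY kidneys. The 5 LOY kidneys other than animal 18 lay below every Control kidney, and animal 18 (152 CPM) lay level with the lowest Control kidney, animal 3 (152 CPM). This gave a log2 fold change of -0.71 ± 0.18 (edgeR adjusted p = 0.0686), and -0.48 without LOY animals 8 and 10 (adjusted p = 0.0677). Among animals numbered above 10, where LOY has animals 14 and 18 only, the value was also -0.48 (edgeR adjusted p = 0.00808). With animal number as a term instead, no gene of the table passed. DESeq2 (-0.72, adjusted p = 0.00742) and voom (-0.60, adjusted p = 0.00688) called Slc7a9 as lower. Its adjusted p reached 0.420 at the highest over all settings tried.

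Slc7a13 encodes AGT1, a carrier of aspartate, glutamate and cystine in the last segment of the mouse proximal tubule (chromosome 4, 19818725 to 19842218, plus strand). It had the highest level per kilobase of exon of all 10 members in each of the 4 groups. In CPM it measured 939, 991 and 1249 in Control and 527, 790 and 1106 in LOY kidneys. The 2 LOY kidneys at the top, animals 5 (1106) and 14 (1058), lay within the Control range, and the other 4 lay below it. Its log2 fold change was -0.36 ± 0.17 (edgeR adjusted p = 0.225), and -0.23 without animals 8 and 10.

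The ratios between these partners did not pass. The log2 count ratio of Slc7a9 to Slc3a1 was -1.25 ± 0.27 in Control and -0.93 ± 0.70 in LOY kidneys (exact permutation p = 0.357), that of Slc7a13 to Slc3a1 was 1.18 ± 0.29 and 1.87 ± 1.03 (exact permutation p = 0.130), and that of Slc7a13 to Slc7a9 was 2.44 ± 0.22 and 2.80 ± 0.44 (exact permutation p = 0.102). Animal 8 set the spread: it had 1.24 Slc7a9 counts per Slc3a1 count, where the other 11 kidneys had 0.313 to 0.607, and 14.0 Slc7a13 counts per Slc3a1 count, where the others had 1.76 to 3.82. The first of these differences changed sign without animals 8 and 10, to -0.04.

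At the basolateral side, the heavy chain Slc3a2 and its light chain Slc7a7 differed. Slc3a2 is expressed in most cell types, as a partner of several light chains (chromosome 19, 8706882 to 8723369, minus strand). It measured 158, 179 and 184 CPM in Control and 148, 171 and 187 in LOY kidneys, the narrowest spread of the 10 members (coefficients of variation of 6.34% and 8.17%). Its log2 fold change was -0.04 ± 0.09 (edgeR adjusted p = 0.796), with an interval of -0.23 to 0.15.

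Slc7a7 encodes y+LAT1, which exports cationic amino acids in exchange for neutral amino acids and sodium (chromosome 14, 54369442 to 54417780, minus strand). It measured 70.7, 124 and 136 CPM in Control and 20.3, 73.0 and 87.3 in LOY kidneys. Animals 8 (20.3) and 10 (20.4) lay far below the other 4 LOY kidneys, which held between 72.8 and 87.3 and overlapped Control only through animal 3 (70.7). For Slc7a7 the log2 fold change was -0.97 ± 0.33 (edgeR adjusted p = 0.143). Without animals 8 and 10 it was -0.58 (adjusted p = 0.113), and by DESeq2 -0.98 (adjusted p = 0.0445). Among animals numbered above 10, where LOY has animals 14 and 18 only, the value was -0.64 (edgeR adjusted p = 0.00270). With animal number as a term instead, no gene of the table passed. The adjusted p of Slc7a7 reached 0.716 at the highest over all settings tried.

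Relative to Slc3a2 in the same kidney, Slc7a7 was lower by 1.14 on the log2 scale in LOY kidneys (-0.62 ± 0.32 in Control, -1.76 ± 1.01 in LOY; exact permutation p = 0.00866, adjusted p = 0.0173 over 6 ratios). In plain counts the ratio was 0.434 in Control animal 3 and 0.600 to 0.788 in the other Control kidneys, against 0.113 and 0.127 in LOY animals 8 and 10 and 0.419 to 0.492 in the other 4. Slc7a8, the LAT2 light chain, which also pairs with Slc3a2 and passes neutral amino acids to the blood, was lower relative to Slc3a2 by 0.65 (-0.51 ± 0.14 and -1.16 ± 0.52; exact permutation p = 0.00433, adjusted p = 0.0173). LOY animal 5 (0.601) was the only LOY kidney above a Control kidney (animal 3, 0.599) in that ratio. Without LOY animals 8 and 10 both differences kept their direction and no longer passed (-0.49 and -0.35, exact permutation adjusted p = 0.0857 and 0.0571). The number of the 6 partner ratios that passed was 3 with all kidneys, 0 when Control animal 12, 16 or 17 was left out, 2 without Control animal 11 or 13, and 5 without LOY animal 18.

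**Figure D2:**
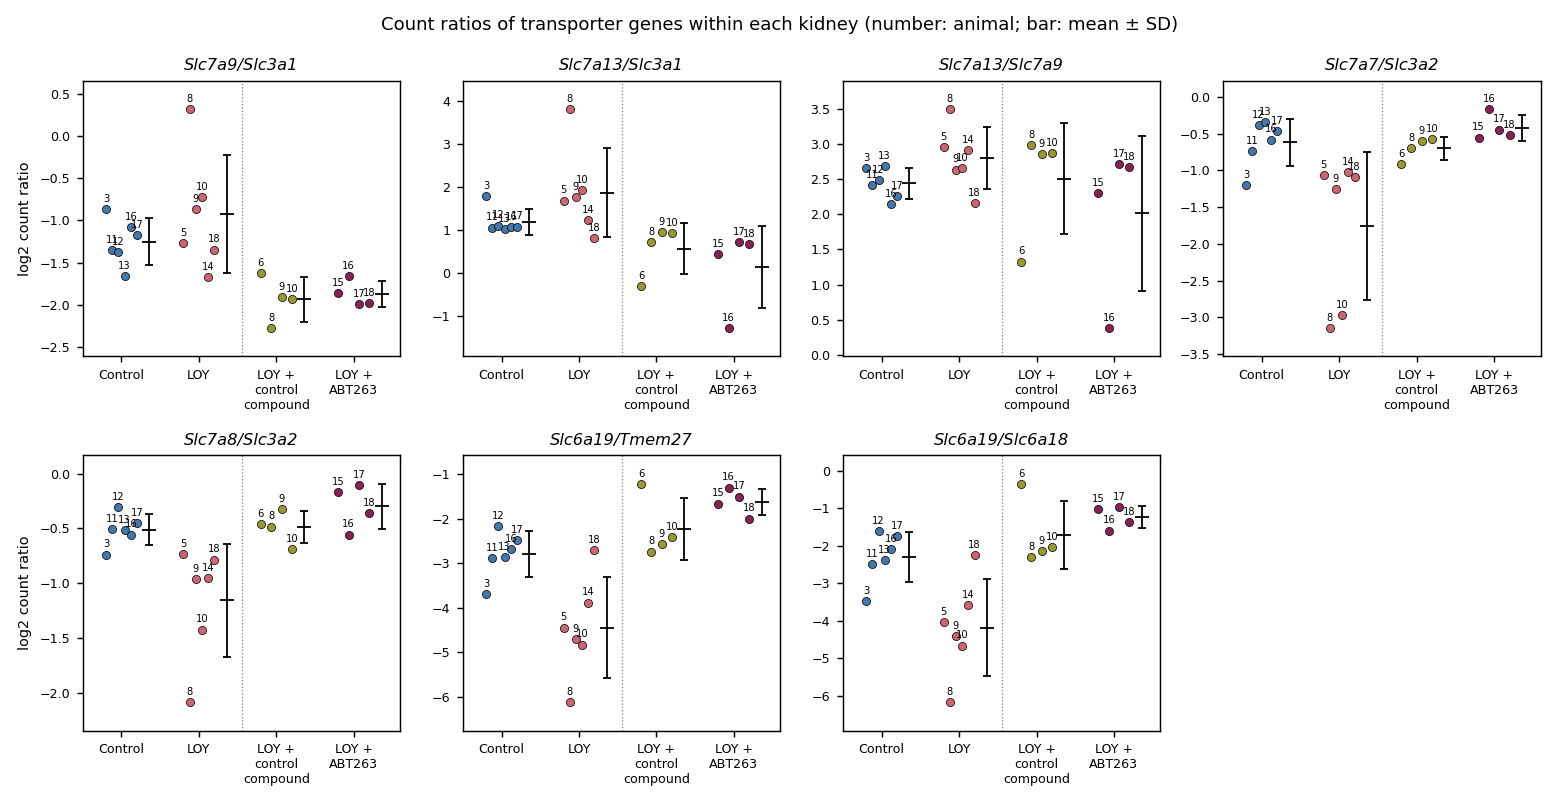
Each panel plots the log2 ratio of the counts of 2 genes within a kidney in the 4 groups; points are kidneys with their animal number, bars are mean ± SD, and the dotted line separates the 2 tables, which are not compared. LOY animal 8 is the highest or the lowest kidney of the first table in every panel, Slc7a7/Slc3a2 puts LOY animals 8 and 10 apart from all others, and control-compound animal 6 has the highest Slc6a19/Slc6a18 and Slc6a19/Tmem27 ratios.

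Of the remaining members, Slc1a1 encodes EAAT3, the brush-border carrier of glutamate and aspartate (chromosome 19, 28835049 to 28913960, plus strand). It measured 307, 372 and 417 CPM in Control and 212, 287 and 366 in LOY kidneys (lowest, median, highest). LOY animals 5 and 14 (366 and 351) lay among the Control kidneys, and the other 4 (212 to 306) lay below the lowest of them, animal 3 (307). This amounted to a log2 fold change of -0.35 ± 0.14 (edgeR adjusted p = 0.182), and -0.21 without animals 8 and 10.

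Slc36a1 encodes PAT1, a proton-coupled carrier of glycine, proline and alanine that is found at lysosomes as well as at the apical membrane (chromosome 11, 55204350 to 55236330, plus strand). It measured 117, 169 and 202 CPM in Control and 71.5, 126 and 143 in LOY kidneys. Animals 8 (71.5) and 10 (74.2) were the 2 LOY kidneys below every Control kidney. Over both groups the log2 fold change was -0.56 ± 0.19 (edgeR adjusted p = 0.135) and -0.35 without those 2 kidneys, and voom called it (-0.47, adjusted p = 0.0381).

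**Figure D3:**
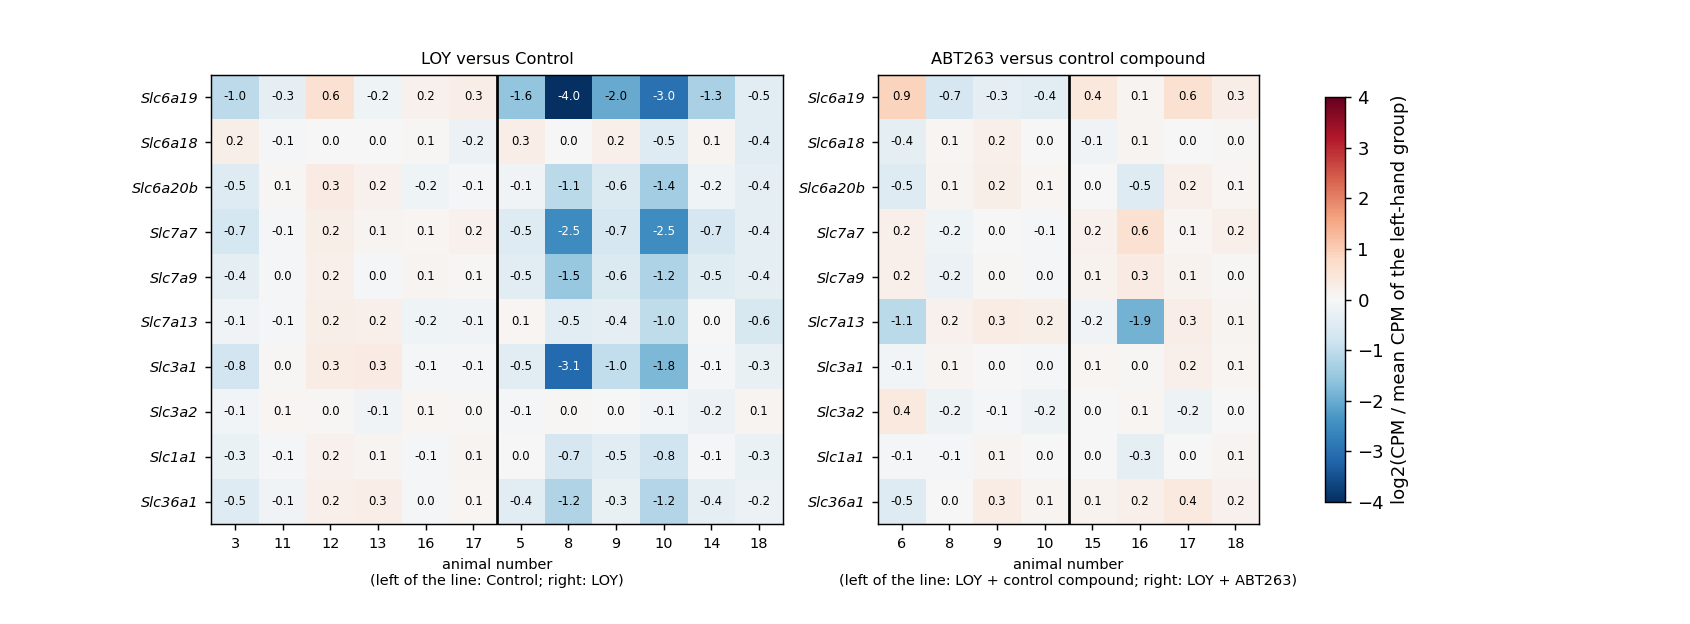
Each cell gives log2 of the CPM of one gene in one kidney over the mean of the left-hand group of its table (colour scale from -4 to 4), with kidneys in columns by animal number and genes in rows. In the left panel LOY animals 8 and 10 are low for 8 genes but near 0 for Slc3a2, and Slc6a18 is at 0.0 in animal 8 where Slc6a19 is at -4.0. In the right panel, control-compound animal 6 and ABT263 animal 16 carry the strongest colours, led by Slc7a13 at -1.1 and -1.9.

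Summed over the 10 members, transporter RNA was 3982 ± 405 CPM in the 6 Control and 3020 ± 689 in the 6 LOY kidneys (mean ± SD), with ranges of 3444 to 4570 and 2014 to 3788. LOY animals 8 and 10 had the lowest sums, at 2469 and 2014 CPM, and the LOY mean is not given without them. Slc7a13 and Slc6a18 together made up 46.9% to 60.3% of this sum in Control and 46.6% to 69.3% in LOY kidneys, the highest share being that of animal 8. The other 8 members summed to 1366 to 2363 CPM in Control and 757 to 1607 in LOY kidneys.

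Per kilobase of exon in Control kidneys, Slc7a13 stood first at 495 ± 66.5 CPM per kilobase, apart from Slc6a18 (218) and Slc3a1 (210), which overlapped each other. Slc7a9 followed at 73.1 ± 9.31 and separated from Slc3a1 above it and from Slc3a2 (49.4 ± 3.13) below it. Slc1a1 (44.6), Slc6a19 (41.6), Slc7a7 (34.9), Slc6a20b (29.6) and Slc36a1 (29.6) came next, and each overlapped its neighbours. In LOY kidneys Slc6a19 came last, at 13.3 ± 9.97 CPM per kilobase, and every neighbour in the order overlapped the next.

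Over the 12 kidneys of the first table and 14396 genes averaging 1 CPM or more, the gene whose log2 CPM followed a member most closely was in 1 case a fellow member: Slc7a9 for Slc6a19 (Pearson r = 0.98). Slc7a9 itself was closest to Pex7 (0.99), Slc7a7 to Pde6a (0.99), Slc3a1 to Ugt3a1 (0.99) and Slc6a20b to Znrf2 (0.99). Slc1a1 was closest to Cyp4b1 (0.98), Slc36a1 to Nbr1 (0.98), Slc7a13 to Tinag (0.96), Slc6a18 to Serpina1f (0.94) and Slc3a2 to Gm10866 (0.90). These values describe 12 kidneys in 2 groups, and the genes compared come from the same libraries; they carry no test. Slc6a19 and Slc6a18, by contrast, had an r of 0.05.

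A wider list of 42 other amino acid transporters, of any membrane or cell type, was spread more evenly around 0. Of its 36 tested genes 0 passed (edgeR), 13 had positive and 23 negative log2 fold changes, 2 were higher and 8 lower at an unadjusted p below 0.05, and the median was -0.11. Slc43a2, encoding the branched-chain amino acid carrier LAT4, was 153 ± 28.4 CPM in Control and 99.5 ± 29.2 in LOY kidneys (log2 fold change -0.62 ± 0.18, edgeR adjusted p = 0.10). In 5 of the 6 LOY kidneys it was under the lowest Control value. Slc7a8 was 123 ± 16.6 and 79.5 ± 25.2 CPM (-0.63 ± 0.19, edgeR adjusted p = 0.112). Slc16a10, the aromatic amino acid carrier TAT1, was 40.8 ± 5.96 and 34.2 ± 6.03 CPM (-0.26 ± 0.14, edgeR adjusted p = 0.271). Slc1a5, the glutamine carrier ASCT2 of growing cells, pointed the other way, with 43.2 ± 6.87 and 60.9 ± 14.8 CPM (0.50 ± 0.16, edgeR adjusted p = 0.118). So did the basolateral glutamine carrier gene Slc38a3, with 73.2 ± 11.2 and 126 ± 76.7 CPM (0.79 ± 0.30, edgeR adjusted p = 0.169), where LOY animals 8 (233) and 10 (214) held the highest values. LOY animals 5, 9, 14 and 18 were at 104%, 131%, 87.7% and 99.3% of the Control mean, beside 81.3% to 127% in Control kidneys.

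Pathways next to amino acid transport gave no calls either. Of 11 brush-border peptidases, which release amino acids from filtered peptides, 10 had negative log2 fold changes and the median was -0.35, with Xpnpep2 at -0.64 ± 0.27 and Enpep at -0.35 ± 0.16 (edgeR adjusted p = 0.188 and 0.205). Of 17 tested targets of ATF4, the transcription factor that responds to amino acid shortage and other stress, 15 had positive values and the median was 0.42. The one-carbon enzyme gene Mthfd2 was 5.76 ± 1.31 CPM in Control and 10.9 ± 3.71 in LOY kidneys (0.91 ± 0.23, edgeR adjusted p = 0.0634), and the lipoprotein receptor gene Vldlr was 114 ± 17.3 and 81.9 ± 13.1 CPM (-0.48 ± 0.13, edgeR adjusted p = 0.0866). Atf4 itself was at 0.09 ± 0.13. Of 13 genes of ammonia and glutamine handling 8 were negative (median -0.14), with the bicarbonate exporter Slc4a4 at -0.74 ± 0.27 and the proline-degrading enzyme gene Aldh4a1 at -0.54 ± 0.18. Of 9 androgen-dependent kidney genes 7 were negative (median -0.15); Cyp4b1 was at -0.64 ± 0.23, while Kap was at 0.45 ± 0.27, with 52967 CPM in LOY animal 8 and 13149 to 29408 in the other LOY kidneys.

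The ABT263 and control-compound kidneys were compared to see what a senolytic does in animals with a LOY blood system. No transporter passed among 16956 tested genes, of which 0.00% passed by edgeR, 5.91% had an unadjusted p below 0.05, and 44 and 11 genes passed by DESeq2 and voom. Of the 10 members 6 had a higher and 4 a lower mean with ABT263, where 50.6% of all genes had a lower one. Their median log2 fold change was 0.06, beside -0.0028 for all genes, and 1 member was higher at an unadjusted p below 0.05, against 2.95% of all genes. The groups of no member separated, against 4.29% of all genes. Animal number cannot be told apart from treatment here, since all control-compound animals are numbered 10 or below and all ABT263 animals 15 or above. Numbers recur between the tables with other labels, so they do not tie kidneys across them.

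A pair of kidneys stood apart in this table. Control-compound animal 6 was the lowest of its group for 6 transporters and the highest for the other 4, and its sum of markers of the last proximal tubule segment (S3), 781 CPM, compares with 1752 to 2508 in the other 7 kidneys. ABT263 animal 16 was the lowest for 5 and the highest for 4, and its injury marker sum, 21370 CPM, compares with 1940 to 4244 in the others; Havcr1 was 735 CPM there. Values without both kidneys were computed after the data had been seen.

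**Figure D4:**
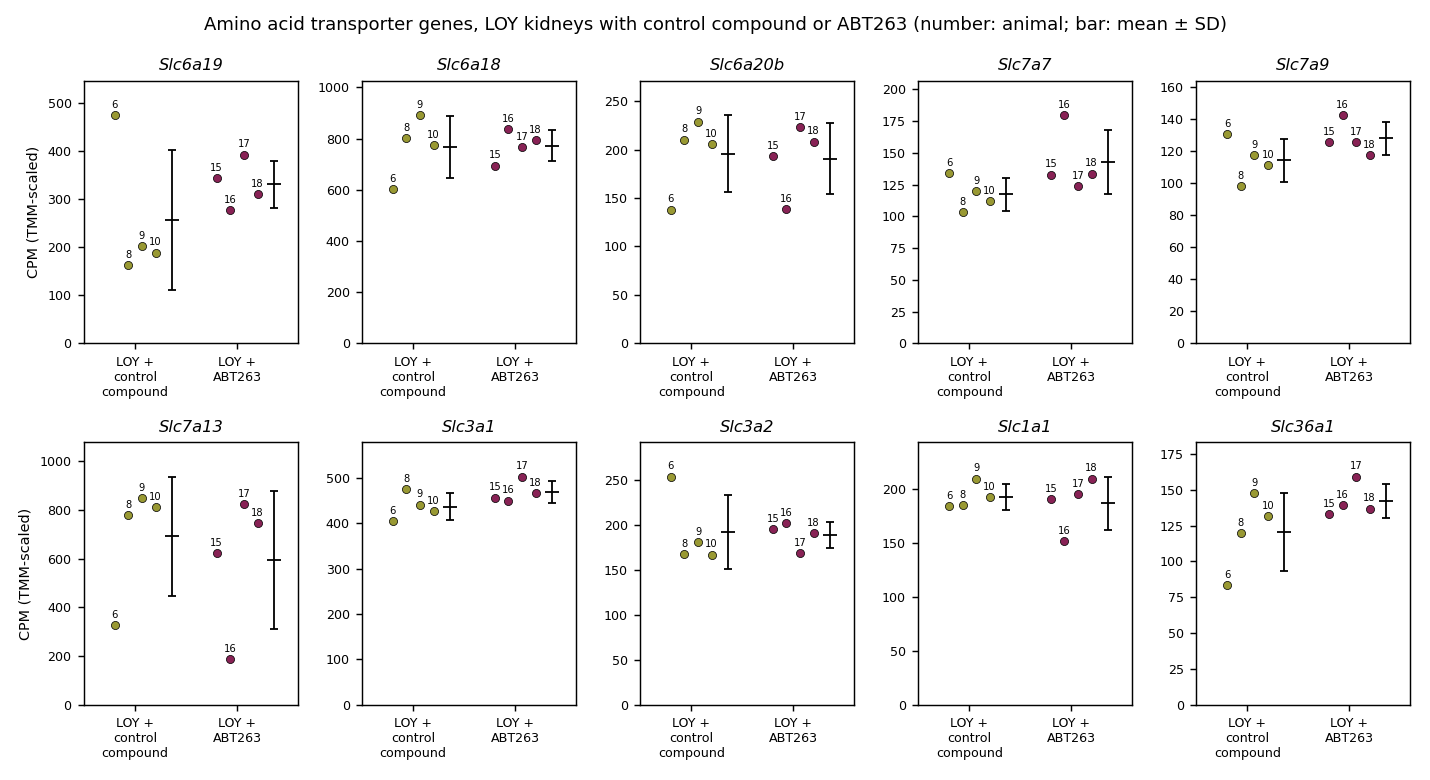
Each panel plots one gene in CPM (TMM-scaled; the axis starts at 0) for 4 LOY kidneys with the control compound and 4 with ABT263; points are kidneys with their animal number, and bars are mean ± SD. Control-compound animal 6 is highest for Slc6a19 (474) and Slc3a2 (254) and lowest for Slc7a13 (328), and ABT263 animal 16 is lowest for Slc7a13 (186) and highest for Slc7a7 (180).

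Slc6a19 measured 474, 162, 202 and 189 CPM in control-compound animals 6, 8, 9 and 10, and 343, 277, 392 and 310 in ABT263 animals 15, 16, 17 and 18. All 4 ABT263 kidneys lay above 3 of the control-compound kidneys and below animal 6. With all 8 kidneys the log2 fold change was 0.37 ± 0.34 (edgeR adjusted p = 0.889). Without animal 6 it was 0.84 (edgeR adjusted p = 0.0443), and without animals 6 and 16 it was 0.92 (edgeR adjusted p = 0.000421), so that this call depends on animal 6 being left out. Leaving out animals 6 and 16 also took the number of genes called in the whole table from 0 to 388. The antisense transcript Slc6a19os, which overlaps Slc6a19 and is listed in both tables, had 43 counts in animal 6 here and 1 to 20 in the other kidneys.

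Slc6a18 measured 601, 803, 891 and 773 CPM with the control compound (animals 6, 8, 9 and 10) and 694, 836, 766 and 794 with ABT263 (animals 15 to 18 in order). The log2 fold change was 0.01 ± 0.12, with an interval of -0.26 to 0.28. Slc6a20b measured 138, 210, 229 and 206 CPM with the control compound and 193, 138, 224 and 208 with ABT263, so animals 6 and 16 were equally low and the groups overlapped (-0.04 ± 0.18). Tmem27 was 1095 ± 82.0 and 1029 ± 240 CPM, with ABT263 animal 16 lowest at 683.

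Slc7a7 had the smallest p among the members in this comparison. It measured 134, 104, 120 and 112 CPM with the control compound and 133, 180, 124 and 134 with ABT263, a log2 fold change of 0.28 ± 0.12 (edgeR adjusted p = 0.827). Animal 16 supplied the highest value, and without animals 6 and 16 the value was 0.22 (edgeR adjusted p = 0.129). Relative to Slc3a2 within the kidney, Slc7a7 had count ratios of 0.528, 0.617, 0.660 and 0.670 with the control compound and 0.680, 0.887, 0.733 and 0.698 with ABT263. These 2 sets do not overlap (log2 difference 0.27, exact permutation p = 0.0286, which no split of 8 kidneys into 4 and 4 can go below; adjusted p = 0.171 over 6 ratios). Without animals 6 and 16, which held the lowest and the highest of these ratios, the log2 difference was 0.12. None of the other 5 ratios passed (exact permutation adjusted p of 0.400 to 0.771). With 4 kidneys per group no ratio could pass on its own after adjustment over 6, so this does not show an absence of change. Slc3a2 itself measured 254, 168, 181 and 167 CPM with the control compound and 195, 202, 169 and 192 with ABT263 (-0.02 ± 0.13).

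The cystinuria pair differed little between the treatments. Slc3a1 measured 404, 476, 441 and 426 CPM with the control compound and 456, 450, 502 and 466 with ABT263 (0.10 ± 0.08, interval -0.08 to 0.28). Slc7a9 measured 131, 98.3, 118 and 111 CPM with the control compound and 126, 142, 126 and 118 with ABT263 (0.16 ± 0.10, interval -0.06 to 0.38). The groups overlapped for both genes, and the highest kidney was ABT263 animal 17 for Slc3a1 and ABT263 animal 16 for Slc7a9.

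Slc7a13 had the largest coefficient of variation of the 10 members with ABT263 (47.9%), and Slc6a19 with the control compound (56.8%). Slc7a13 measured 328, 779, 849 and 811 CPM with the control compound and 621, 186, 823 and 746 with ABT263, so each group had 1 kidney far below the rest, animals 6 and 16. The log2 fold change was -0.22 ± 0.48, with an interval of -1.35 to 0.91, and it was -0.15 without both kidneys (edgeR adjusted p = 0.425). Animal 16 had 0.414 Slc7a13 counts per Slc3a1 count and animal 6 had 0.812, where the other 6 kidneys had 1.36 to 1.93.

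Slc1a1 measured 184, 185, 210 and 192 CPM with the control compound and 191, 152, 195 and 210 with ABT263 (-0.05 ± 0.10). Slc36a1 measured 83.6, 120, 148 and 132 CPM with the control compound and 133, 139, 159 and 137 with ABT263 (0.24 ± 0.15, edgeR adjusted p = 0.848). Animal 6 was the low kidney of Slc36a1, and without animals 6 and 16 the log2 fold change was 0.11. The sum of the 10 members was 3085 ± 270 CPM with the control compound and 3145 ± 336 with ABT263 (SD, n = 4 each).

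**Figure D5:**
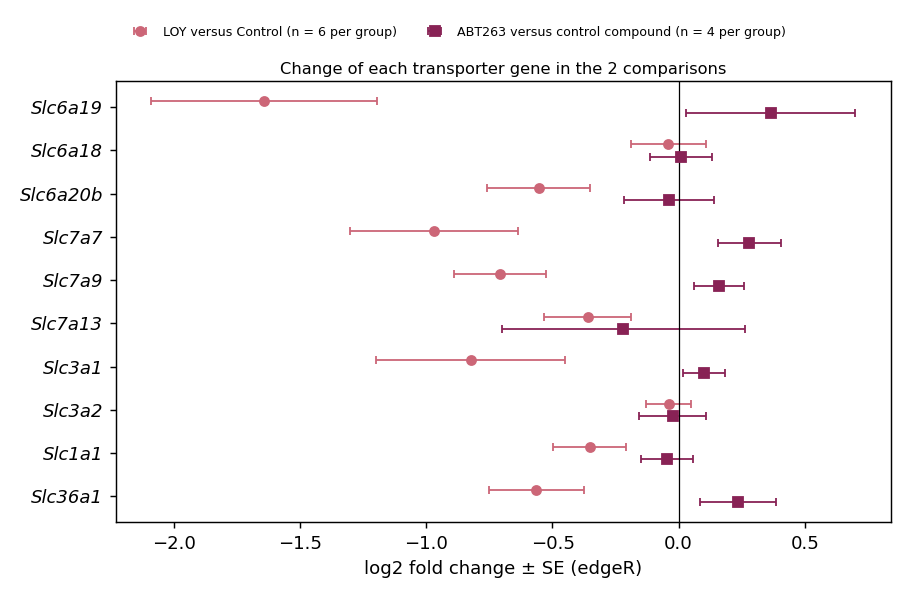
The log2 fold change ± SE (edgeR) of each transporter gene is plotted for LOY against Control (circles, n = 6 per group) and for ABT263 against the control compound (squares, n = 4 per group); the vertical line marks 0. All 10 circles lie at or left of 0, from -1.64 for Slc6a19 to -0.04 for Slc6a18 and Slc3a2, and the squares lie between -0.22 (Slc7a13) and 0.37 (Slc6a19).

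Per kilobase of exon, Slc7a13 (323 ± 114 with the control compound, 277 ± 133 with ABT263), Slc3a1 (192 ± 13.3 and 206 ± 10.4) and Slc6a18 (174 ± 27.5 and 175 ± 13.5) again came first in both groups. Slc6a19 was at 51.3 ± 29.1 CPM per kilobase with the control compound and 66.0 ± 9.86 with ABT263, overlapping Slc3a2 in both groups and Slc7a9 with the control compound alone.

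Among the 39 tested genes of the wider transporter list 24 had positive and 15 negative log2 fold changes with ABT263 (median 0.05). At an unadjusted p below 0.05, 1 was lower and 0 were higher, where 5.91% of all genes reached that p in either direction (edgeR). The lower gene was Slc38a3, whose product SNAT3 feeds ammonia production in the tubule. It measured 95.7 ± 39.4 CPM with the control compound and 61.8 ± 7.48 with ABT263 (-0.63 ± 0.25, edgeR adjusted p = 0.827). Control-compound animal 6 was at 161% of its group's mean for this gene, and animals 8, 9 and 10 at 83.4%, 84.9% and 70.7%. The ABT263 kidneys lay at 53.5% to 71.9% of that mean, so the groups overlapped. Slc43a2 (0.20 ± 0.11), Slc7a8 (0.16 ± 0.16) and Slc16a10 (0.13 ± 0.08) did not pass, nor did Slc7a11, the cystine carrier xCT, which was scarce (2.12 ± 2.04 and 1.05 ± 0.22 CPM). The 11 peptidases had a median of 0.02, with Dpp4 at -0.13 ± 0.07 and Anpep at -0.12 ± 0.10. The 13 genes of ammonia and glutamine handling had a median of 0.0038, with the sodium-proton exchanger Slc9a3 at 0.29 ± 0.11, and the 9 androgen-dependent genes had one of -0.11, with Kap at -0.18 ± 0.34 and Gusb at -0.11 ± 0.25. The 18 ATF4 targets had a median of 0.13, with the serine synthesis enzyme gene Phgdh at 0.61 ± 0.23. Atf4 measured 114 ± 13.5 CPM with the control compound and 84.2 ± 6.61 with ABT263 (-0.44 ± 0.10, edgeR adjusted p = 0.566). Its groups did not overlap, as was the case for 4.29% of all genes. Among the 20 proximal tubule markers 8 were positive and 12 negative (median -0.02).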

How the data were processed

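Kidneys of 20 mice were profiled by RNA sequencing. Per the labels' protocols, Novogene sequenced total RNA (QIAzol and RNeasy extraction) on a NovaSeq X. The authors deposited raw counts per gene in 2 tables, 1 with 12 and 1 with 8 kidneys; mm10 is the genome build, per the submitters' processing notes. Which aligner, counting program, annotation and strand setting were used is not given in the sources used here. In the first table the counts without a gene, 0.223% to 0.401% of the total, were left out.

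Each table was fitted whole and apart in R 4.3.3 by the robust quasi-likelihood F test of edgeR 4.0.16 (scaling by TMM; filterByExpr at min.count 10 and min.total.count 15; Benjamini-Hochberg adjustment over all tested genes, threshold 0.05). All 10 members passed the filter in both tables, with 176 to 18826 and 1424 to 16914 counts per kidney. CPM use TMM-scaled totals and are given as mean ± SD; log2 fold changes are ± SE, and intervals are 95%. The labels give each kidney a separate animal, and replicates were checked to be distinct libraries: the lowest median squared count difference relative to counting noise was 1.96 over 30 pairs and 1.76 over 12 pairs.

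Partner genes were compared as log2 count ratios within a kidney (0.5 added to each count) by exact two-sided permutation over all 924 or 70 splits, adjusted over 6 ratios per table; the smallest p these splits allow is 0.00216 and 0.0286. DESeq2 1.42.0, voom with sample quality weights (limma 3.58.1), other scalings and filters, an adjusted p of 0.1, animal number as a term, and leaving out kidneys were tried as alternatives. Scripts were tested on simulated data. Coordinates and exon lengths are from GENCODE M21 (GRCm38). Promoters are from RefSeq.

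Genes named are the 10 members; of the wider transporter list the 3 of smallest p, with Slc7a8, Slc43a2, Slc16a10, Slc6a20a and Tmem27; of each neighbouring pathway the 2 of smallest p; and for each member the gene of highest correlation. Atf4 and Slc38a3 in the first table, Slc6a19os, Kap values by kidney and Havcr1 were named after their values were seen. Results on a few genes that meet these rules are not reported here. The members and lists were chosen with earlier results of these data known.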

Additional observations from a re-analysis of the deposited data

Results flagged for a closer look

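In a check of each member in each group for a kidney far from the others, 3 of 40 groups were singled out, where chance gives about 5%. All 3 concern animal 6 of the control-compound group. It had 474 CPM of Slc6a19 where the other 3 kidneys had 162 to 202, a gap of 0.873 of the group's range. It had 328 CPM of Slc7a13 where the others had 779 to 849 (0.864 of the range). It had 254 CPM of Slc3a2 where the others had 167 to 181 (0.842 of the range). The sum of S3 markers was low in the same kidney, at 781 CPM; whether this has a part in the transporter values was not tested.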

How the results depend on the processing

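No paired analysis was possible because the groups compared within a table share no animal number. LOY against Control, the number of the 10 members called was 0, but 3 with DESeq2, 4 with voom, 2 at an adjusted p of 0.1, 2 among animals numbered above 10, and 0 to 2 when each kidney was left out: Slc6a19 and Slc7a9 passed without Control animal 3 or LOY animal 18, and Slc7a9 without LOY animal 8. Over all genes the count went from 176 to 105 with totals alone, 866 with DESeq2, 1062 with voom, 549 at an adjusted p of 0.1, 0 with animal number as a term, 451 above number 10, 29 without LOY animals 8 and 10, and 0 to 607 leaving out kidneys. The 3 ratios called became 0 above number 10 (where 21 splits cannot reach the threshold), 0 without animals 8 and 10, and 0 to 5 leaving out kidneys. Slc6a18 changed sign with voom (0.088) and without animals 8 and 10 (0.040), and ranged from -0.12 to 0.025 leaving out kidneys. The Slc7a9/Slc3a1 difference became -0.18 above number 10 and -0.039 without animals 8 and 10, and Slc7a13/Slc3a1 became -0.041 above number 10.

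With ABT263, 1 member (Slc6a19) passed without animals 6 and 16, an alternative chosen after seeing the data, and 0 to 1 leaving out kidneys. All genes called went from 0 to 44 with DESeq2, 11 with voom, 388 without animals 6 and 16, and 0 to 9 leaving out kidneys. Signs changed for Slc6a18 (-0.095 with voom, -0.13 without both), Slc3a2 (0.085 with voom, 0.11 without both) and Slc1a1 (0.023 without both). Leaving out kidneys, Slc1a1 ranged from -0.11 to 0.045, Slc3a2 from -0.085 to 0.14, Slc6a18 from -0.090 to 0.090, Slc6a20b from -0.17 to 0.092 and Slc7a13 from -0.45 to 0.080. The ratios Slc7a13/Slc3a1, Slc7a13/Slc7a9 and Slc7a9/Slc3a1 ranged from -0.72 to 0.041, from -0.89 to 0.051 and from -0.051 to 0.16. The causes were not tested. Other scalings and filters moved no member across the threshold.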
